A study of Mus musculus with 80 samples.

Results

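Brain endothelial genes were followed in bulk RNA-seq libraries of the mouse brain. The set held 10 genes: Cldn5, Cdh5 and Pecam1 of the cell junctions, the receptors Flt1, Kdr and Tek, the transporters Slc2a1, Slco1a4 and Abcb1a, and the surface protein Ly6c1. Their membership rests on being known endothelial genes, and the rule uses no measured value. Earlier results of these data were known when the members were chosen. All 10 of the 10 were found among the 27179 genes of the count table, and all 10 were among the 13016 genes that passed the filter of CPM (counts scaled to a common library total) of 5 or more in 8 or more libraries. The animals were 16 C57BL/6 female mice (C57BL/6J in the study's methods), 8 virgin and 8 primiparous. A primiparous female was paired with a male for 2 weeks from the age of 8 weeks, raised 1 litter and was killed, 3 weeks after weaning per the labels and after a longer interval per the study's methods, and the virgin females were of the same age. Hypothalamus, amygdala, hippocampus, neocortex and cerebellum were taken from each animal, the hypothalamus whole and the other regions from the left side, which gave 80 samples, of which 77 libraries were analysed. There were 8 primiparous libraries in every region, 8 virgin libraries in hypothalamus and neocortex, and 7 virgin libraries in amygdala, hippocampus and cerebellum. A primiparous female differs from a virgin by contact with a male, mating, pregnancy, lactation, maternal care and weaning together. Housing differed too, since virgin females were kept 8 to a cage per the study's methods. These are not told apart by the design.

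Endothelial cells line every vessel of the brain and form the blood-brain barrier. Tight junctions built on claudin-5 seal the gaps between them, few vesicles cross them, and transporters in their membranes carry glucose and other nutrients in and drugs and waste products out. VEGF and angiopoietin signalling, received by Flt1, Kdr and Tek, sets the growth and stability of the vessels, and the density of capillaries differs between brain regions. In a bulk library, fewer endothelial cells and less RNA per endothelial cell cannot be told apart.

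Positions are on the mouse genome GRCm38 from GENCODE gene models, and gene numbers are the NCBI numbers of the files. Cldn5 (12741), claudin-5, spans 18776847 to 18778262 of chromosome 16 on the plus strand and has the shortest exon sequence, 1416 bases, and the highest GC content, 60.5%. Cdh5 (12562), VE-cadherin of the adherens junction, spans 104101625 to 104144511 of chromosome 8. Pecam1 (18613), an adhesion molecule of the endothelial contacts that platelets and leukocytes also carry, spans 106654217 to 106750628 of chromosome 11. The VEGF receptor genes Flt1 (14254, 147561604 to 147726011) and Kdr (16542, 75932827 to 75978458) both lie on the minus strand of chromosome 5. Tek (21687), the angiopoietin receptor, spans 94739289 to 94874976 of chromosome 4, the chromosome that also holds Slc2a1 (20525, 119108711 to 119137983), the glucose transporter GLUT1. Slco1a4 (28250), an organic anion transporter, spans 141805440 to 141856199 of chromosome 6 and has the lowest GC content of the members, 40.3%. Abcb1a (18671), P-glycoprotein, which pumps drugs back into the blood, spans 8660077 to 8748575 of chromosome 5, and Ly6c1 (17067), a surface protein of the Ly6 family, spans 75044018 to 75048830 of chromosome 15.

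The stretch upstream of the transcription start was available for 8 of the 10 members in a promoter table of RefSeq (GRCm38.p6). The 250 bases before the start are shown for Cldn5 and Slco1a4, the members at the ends of the range of differences between states, and for the paired VEGF receptor genes, since these members varied together between libraries (below, capitals mark GGAAG or its reverse complement CTTCC, an extended core of the sites bound by ETS factors, the family that includes endothelial regulators).
Cldn5: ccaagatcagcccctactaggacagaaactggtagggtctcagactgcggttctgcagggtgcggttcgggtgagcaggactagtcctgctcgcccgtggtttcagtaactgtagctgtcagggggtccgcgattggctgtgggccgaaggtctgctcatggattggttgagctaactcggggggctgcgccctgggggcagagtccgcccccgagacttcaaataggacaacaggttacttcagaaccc
Slco1a4: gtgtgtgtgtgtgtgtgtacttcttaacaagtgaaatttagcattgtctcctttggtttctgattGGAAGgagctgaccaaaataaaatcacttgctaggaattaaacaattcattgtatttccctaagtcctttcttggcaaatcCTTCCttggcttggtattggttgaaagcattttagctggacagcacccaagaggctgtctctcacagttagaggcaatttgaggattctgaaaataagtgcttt
Flt1: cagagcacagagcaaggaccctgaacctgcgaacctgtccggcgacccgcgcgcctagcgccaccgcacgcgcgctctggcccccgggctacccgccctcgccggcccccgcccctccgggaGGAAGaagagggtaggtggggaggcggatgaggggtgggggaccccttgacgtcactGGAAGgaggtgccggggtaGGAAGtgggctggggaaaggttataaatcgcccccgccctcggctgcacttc
Kdr: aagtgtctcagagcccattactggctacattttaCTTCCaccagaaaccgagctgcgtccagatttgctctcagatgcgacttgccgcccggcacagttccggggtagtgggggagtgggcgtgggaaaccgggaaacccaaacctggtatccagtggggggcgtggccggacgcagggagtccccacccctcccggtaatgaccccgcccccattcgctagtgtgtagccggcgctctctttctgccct
They stand at chr16:18776597-18776846 on the plus strand for Cldn5, and on the minus strand at chr6:141856221-141856470 for Slco1a4, chr5:147726012-147726261 for Flt1 and chr5:75978456-75978705 for Kdr. Flt1 had 3 matches of GGAAG on either strand, Slco1a4 had 2, Kdr had 1 and Cldn5 had 0. Of the 8 members with a promoter, 5 had a match, beside 63.6% of 27025 mouse promoters of the same length. The shorter core GGAA, which GGAAG contains, was in 6 of the 8, beside 93.4%. GGGCGG, the GC box, was in 4 of 8, beside 32.9%, and TATAAA in 2 of 8, beside 12.97%. A match describes letters in these 250 bases and is no evidence of a bound site.

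The libraries held between 7959192 and 37871854 counts. The counts behind the members ran from 35 for Cdh5 to 3952 for Slc2a1, so none of the libraries gave a member a count of 0. Replicate libraries were separate animals: over 259 pairs within groups, the smallest chi-square per degree of freedom was 3.02, so no pair agreed within sampling noise. Markers of the hypothalamus and of the cerebellum were highest in their own libraries. The 3 hypothalamus markers summed to 427 ± 76.1 CPM in the hypothalamus (SD, n = 16) and to at most 21.8 CPM in any other library, and the 3 cerebellum markers summed to 2443 ± 125 CPM in the cerebellum (SD, n = 15) and to at most 190 CPM elsewhere. Markers of the other regions were less confined. The amygdala marker Rspo2 averaged 20.9 CPM in the hippocampus, and the neocortex marker Tbr1 averaged 89.0 CPM in the amygdala.

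Relative to exon length, Cldn5 and Slc2a1 were the most abundant members, with regional means from 22.9 to 35.9 and from 22.2 to 36.9 CPM per kilobase of exon. Ly6c1 followed at 13.3 to 22.8. Abcb1a ran from 4.52 to 9.38 and Slco1a4 from 4.56 to 7.003 CPM per kilobase. The receptors and the other junction genes were lower, with Flt1 at 2.26 to 4.70, Pecam1 at 2.38 to 4.12, Cdh5 at 1.93 to 3.72, Tek at 2.10 to 3.62 and Kdr lowest at 0.97 to 1.61. Near-identical copies took few counts: Ly6c2, the close copy of Ly6c1, averaged at most 0.080 CPM in any region, and Slco1a1, Slco1a5 and Slco1a6 averaged at most 0.42 CPM. Abcb1b, the second P-glycoprotein gene, averaged 2.24 to 5.06 CPM, and the thyroid hormone transporter Slco1c1 29.0 to 55.7 CPM. Only reads that mapped to 1 place were counted, per the study's methods, so reads that match a member and its copy alike are missing from both.

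**Figure D1:**
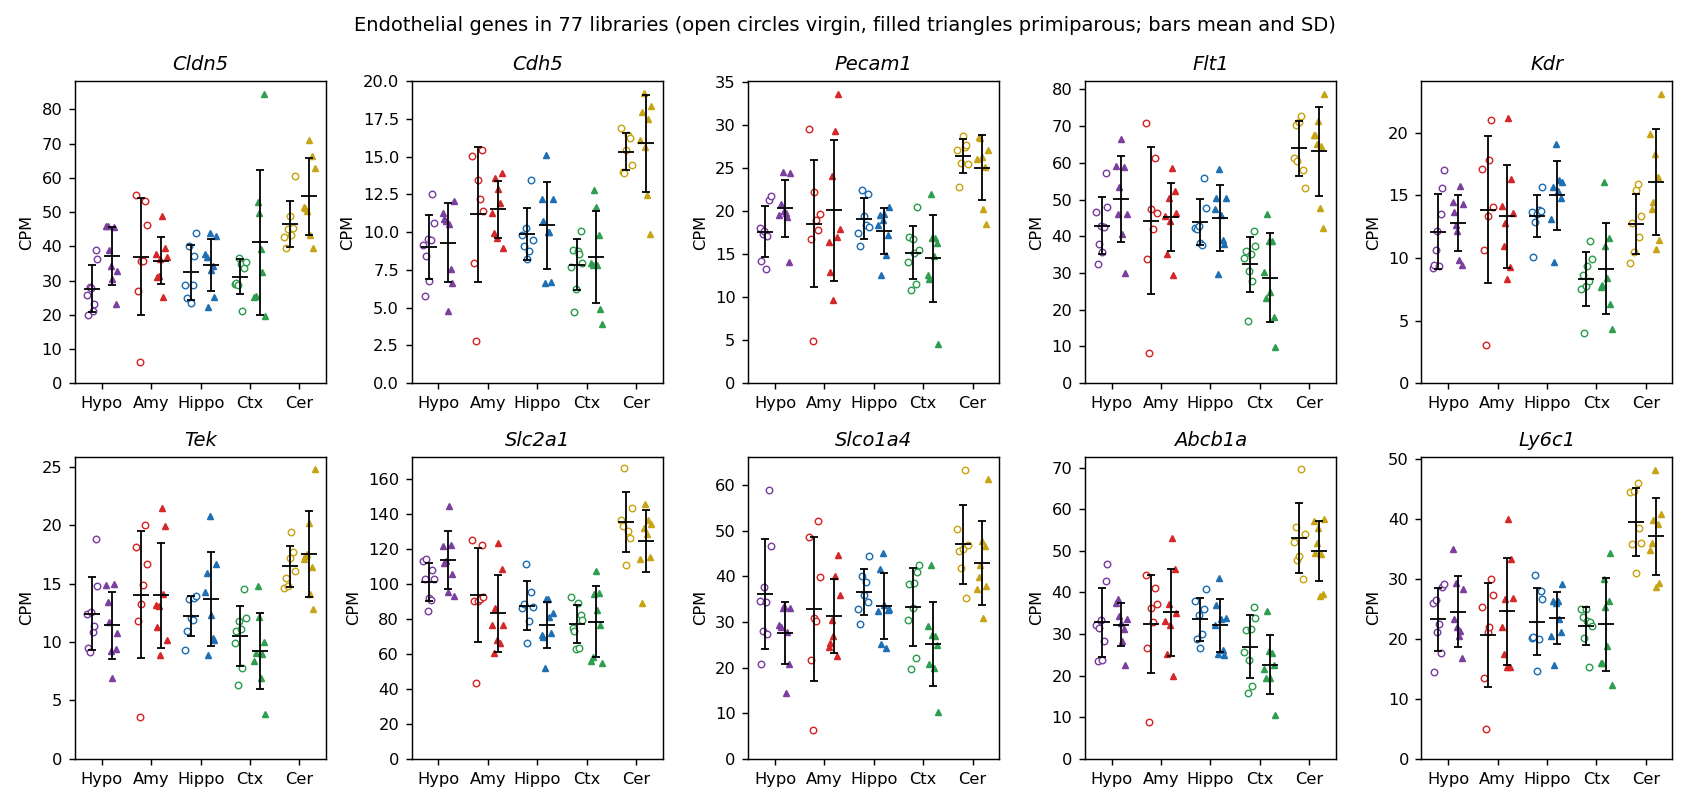
Level of each member in CPM (linear axis from 0) in the 77 libraries, by region and state, with open circles for virgin and filled triangles for primiparous females and bars for the mean and SD of each group. The mean of the cerebellum libraries (Cer) was the highest for all 10 members and called higher than the mean of the other regions for 9, the neocortex (Ctx) was called lower for 7, and 1 virgin amygdala library was the lowest of its region in all 10 panels.

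The amygdala library of virgin animal 4486 was the lowest of its region in every member. Its 10 members summed to 92.5 CPM, against 231 to 449 CPM in the other amygdala libraries, and each stood at 0.17 (Cldn5) to 0.48 (Slc2a1) of the median of the others. Cldn5 was at 6.15 CPM there (77 counts) against 25.3 to 55.1 CPM, and Cdh5 at 2.80 CPM (35 counts) against 7.95 to 15.5 CPM. Several markers of other vascular cells were low with them. Pericyte markers summed to 83.5 CPM against 147 to 276, fibroblast markers to 28.9 against 55.9 to 143, and red blood cell markers to 15.2 against 22.7 to 72.3. Smooth muscle markers summed to 35.7 CPM against 45.5 to 162. Other pan-endothelial genes summed to 575 CPM against 678 to 1002, and barrier transporters and receptors to 800 against 872 to 1022. Genes of VEGF, angiopoietin and Notch signalling stood at 315 CPM against 395 to 533. Those of the Wnt barrier programme stood at 202 against 241 to 318. Some lists lay within the range of the other amygdala libraries. Arterial and venous endothelial genes summed to 366 CPM against 306 to 372, junction genes to 1123 against 1089 to 1188, and fenestrated endothelial genes to 5.04 against 3.74 to 9.93. Markers of glia were below the other amygdala libraries too: microglia markers stood at 271 CPM against 353 to 450, oligodendrocyte markers at 1594 against 1937 to 3952 and astrocyte markers at 4229 against 4419 to 6945. Neuron markers were higher, at 5715 CPM against 4054 to 5235, and the 3 amygdala markers were at 107 against 53.5 to 104 and the cerebellum markers at 8.87 against 0.79 to 7.17. The neocortex library of primiparous animal 4493 was the lowest of its region in 9 of 10 members (all but Kdr), at 0.29 (Flt1 and Pecam1) to 0.69 (Slc2a1) of the median of the other libraries. Where a call or a count of the members changed without the amygdala library, the value without it follows. Without the neocortex library, 7 members were called lower in the neocortex and 9 higher in the cerebellum, beside 35.5% and 42.1% of all genes, and all of them were also called with it.

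**Figure D2:**
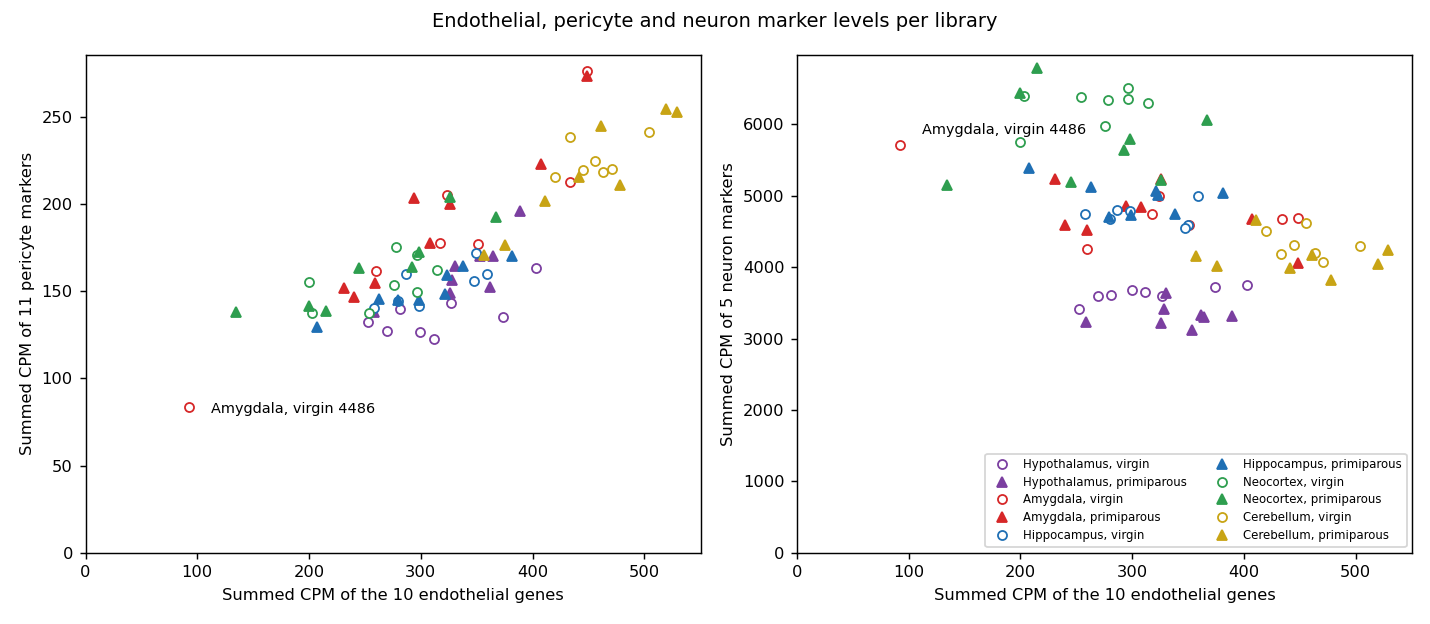
Summed CPM of the 10 members in each library (horizontal axis, linear) against the summed CPM of 11 pericyte markers at the left and of 5 neuron markers at the right, coloured by region, with open circles for virgin and filled triangles for primiparous females. The labelled amygdala library of virgin animal 4486 lies at 92.5 CPM for the members and 83.5 CPM for the pericyte markers.

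The first comparison asked where in the brain these genes were high. All 10 members had a positive log2 fold change in the cerebellum over the mean of the other 4 regions, and all but Kdr were called higher. In the neocortex 0 of 10 had a positive log2 fold change, and 7 of 10 were called lower. The summed level of the members was 451 ± 48.3 CPM in the cerebellum (SD, n = 15), 327 ± 45.9 in the hypothalamus (n = 16), 316 ± 95.9 in the amygdala (n = 15), 306 ± 45.9 in the hippocampus (n = 15) and 262 ± 59.4 in the neocortex (n = 16). Without the library of animal 4486 the amygdala sum was 332 ± 76.0 (n = 14). In the fit with TMM factors the members' median log2 fold change was -0.18 between hypothalamus and amygdala and -0.19 between hypothalamus and hippocampus, so the hypothalamus came second by summed CPM but not in the fit. Animal by animal, the cerebellum exceeded the neocortex in 15 of 15 females with both libraries, by a median ratio of 1.65 and by 1.20 at the least. The highest ratio, 3.93, belonged to primiparous animal 4493, whose neocortex library held the lowest sum of its region, 135 CPM, and whose cerebellum library held the highest of its own, 529 CPM.

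In the cerebellum, 9 of 10 members were called higher at an adjusted p under 0.05 (edgeR quasi-likelihood test, Benjamini-Hochberg over all genes tested), where 42.3% of all genes were called higher and 40.2% lower. Their median log2 fold change was 0.46, with a range from 0.16 to 0.65, beside a median of 0.02 over all genes. Abcb1a, the drug pump, had the greatest difference: its cerebellum libraries ran from 39.2 over a median of 51.8 to 69.6 CPM, and its mean elsewhere was 30.9 ± 8.52 CPM (SD, n = 62), a log2 fold change of 0.65 with an SE of 0.098 (adjusted p 1.23e-08). All 15 cerebellum libraries stood above the mean of the others for this gene, although the 2 ranges overlapped. Ly6c1 had cerebellum libraries from 28.7 over 38.5 to 48.2 CPM, against 23.02 ± 6.197 CPM elsewhere, a log2 fold change of 0.64 (SE 0.106, adjusted p 9.62e-08). Cdh5 had libraries from 9.89 over 16.1 to 19.2 CPM, against 9.67 ± 2.80 CPM, a log2 fold change of 0.61 (SE 0.104, adjusted p 2.32e-07). For Ly6c1 and Cdh5 too, 15 of 15 cerebellum libraries exceeded the mean of the rest.

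The other cerebellar differences were nearer to 0.5 on the log2 scale. Flt1, which binds VEGF tightly and signals weakly, had a level of 63.5 ± 9.92 CPM in the cerebellum and 41.5 ± 12.5 elsewhere, a log2 fold change of 0.54. Slc2a1 had 129 ± 17.7 against 88.7 ± 20.7 CPM and a log2 fold change of 0.47, with the lowest SE of the members, 0.075. Cldn5 had 50.8 ± 9.97 against 34.6 ± 11.4 CPM and a log2 fold change of 0.46. The corresponding log2 fold changes were 0.44 for Pecam1, 0.41 for Slco1a4 and 0.40 for Tek, with adjusted p-values from 6.41e-05 to 0.00142 in the same test. Kdr, the main signalling receptor for VEGF, had 14.5 ± 3.80 against 12.2 ± 3.87 CPM, and its log2 fold change of 0.16 (95% interval -0.06 to 0.38) had an adjusted p of 0.183.

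The neocortex held the opposite end of the range. There 7 of 10 members were called lower, beside 36.2% of all genes called lower and 37.7% higher, and the median of the 10 log2 fold changes was -0.44 beside 0.01 over all genes. Flt1 had neocortex libraries from 9.88 over 32.2 to 46.1 CPM, against 49.7 ± 13.3 CPM in the other regions (SD, n = 61), and fell by 0.65 on the log2 scale (SE 0.119, adjusted p 1.81e-06). No neocortex library (0 of 16) reached the mean of the other regions for Flt1 or for Abcb1a, whose log2 fold change was -0.55 (SE 0.105, adjusted p 4.75e-06). Kdr had libraries from 3.98 over 8.29 to 16.1 CPM, against 13.7 ± 3.52 CPM, with a log2 fold change of -0.60. Tek and Cdh5 both had a log2 fold change of -0.45, Pecam1 had -0.42 and Slc2a1 -0.32, and all were called.

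The 3 members not called in the neocortex were Cldn5, Slco1a4 and Ly6c1. Cldn5 had 36.1 ± 15.7 CPM there (SD, n = 16) against 38.2 ± 12.1 elsewhere, a log2 fold change of -0.03 (95% interval -0.26 to 0.21). Its neocortex libraries were the most scattered of any region, from 19.7 over 33.2 to 84.4 CPM, and the highest was the library of primiparous animal 427. Slco1a4 had a log2 fold change of -0.26 (adjusted p 0.0518) and Ly6c1 of -0.20 (adjusted p 0.0901). Both were called without the amygdala library of animal 4486 (Slco1a4 -0.28, adjusted p 0.0155, and Ly6c1 -0.22, adjusted p 0.034, in the same edgeR test), which made 9 of 10 called lower in the neocortex, beside 36.3% of all genes. Set directly against the cerebellum, all 10 members were called lower in the neocortex, beside 40.2% of all genes, with log2 fold changes from -0.96 for Abcb1a to -0.39 for Cldn5.

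**Figure D3:**
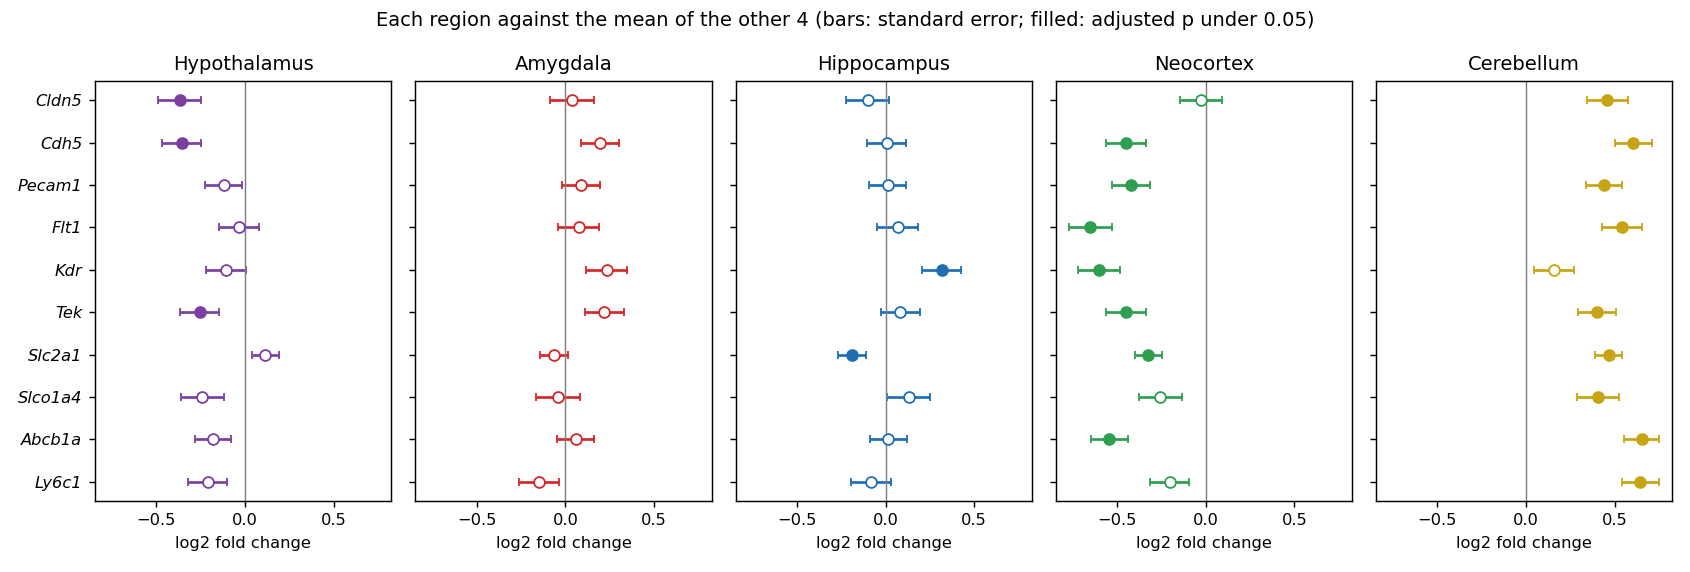
Log2 fold change of each member in 1 region over the mean of the other 4, with standard errors as bars and filled points for an adjusted p under 0.05 (edgeR quasi-likelihood test over 13016 genes). In the cerebellum 9 points are filled to the right of 0, in the neocortex 7 to the left, and in the amygdala 0 are filled.

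The hypothalamus, amygdala and hippocampus lay between these ends. In the hypothalamus 3 members were called lower (Cldn5 -0.37, Cdh5 -0.36 and Tek -0.25 on the log2 scale) and 0 higher, beside 39.1% of all genes called lower. In the hippocampus Kdr was called higher, with 14.2 ± 2.38 CPM against 12.3 ± 4.16 elsewhere and a log2 fold change of 0.32, and Slc2a1 was called lower, with a log2 fold change of -0.19, beside 66.5% of all genes called in either direction. The Kdr call was lost with no scaling beyond total counts, and the Slc2a1 call with no filter and with an offset for transcript length and GC content. In the amygdala 0 members were called by edgeR, limma-voom or DESeq2, with 2 (Kdr and Tek) at an unadjusted p under 0.05, beside 66.6% of all genes called and 69% at an unadjusted p under 0.05. The amygdala and hypothalamus counts changed with the amygdala library of virgin animal 4486. Without it 3 members were called higher in the amygdala, Kdr at 0.32, Tek at 0.30 and Cdh5 at 0.28 on the log2 scale (33.2% of all genes called higher), and 6 rather than 3 were called lower in the hypothalamus (39.3% of all genes), with Slco1a4, Ly6c1 and Abcb1a added. With that offset, which removes each library's trend, 7 members were called in the hypothalamus (80.1% of all genes in either direction), these 6 lower and Slc2a1 higher.

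Regions were also compared in pairs. Against the cerebellum, 9 members were called lower in the hypothalamus, 8 in the amygdala and 7 in the hippocampus, beside 41.1%, 41.4% and 40.2% of all genes called lower. Without the amygdala library of animal 4486, 4 were called lower in the amygdala than in the cerebellum, beside 41.2%. Against the neocortex, 6 members were called higher in the amygdala, 6 in the hippocampus and 4 in the hypothalamus, beside 31.7%, 32.7% and 38.7% of all genes called higher. Without that library these counts were 7, 7 and 5, beside 31.5%, 32.9% and 38.8%, and Cldn5 was called lower in the hypothalamus than in the neocortex. Between amygdala and hippocampus 0 were called by edgeR, limma-voom or DESeq2, with 0 at an unadjusted p under 0.05, beside 58.7% and 62.5% of all genes. The hypothalamus differed from the amygdala in 2 members (Cdh5 and Tek, both lower in the hypothalamus) and from the hippocampus in 2, beside 71% and 73% of all genes. The hippocampal pair was Slc2a1, higher in the hypothalamus by 0.24 on the log2 scale, and Kdr, lower by 0.34. Without the amygdala library of animal 4486 the hypothalamus differed in 5 members from either region, beside 70.9% and 73.4% of all genes, and with the animal as a block, since each female gave all regions, it differed from the hippocampus in 5, beside 72.3%.

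A minority of the steps in the order of levels were called. By mean CPM, the cerebellum came first for all 10 members, and the step down to the second region was called for 7: Abcb1a, Ly6c1, Flt1, Slc2a1, Cdh5, Cldn5 and Pecam1. For Cdh5, Cldn5 and Pecam1 the second region was the amygdala, and the step was not called without the library of animal 4486 (adjusted p 0.0616, 0.0861 and 0.109). Over the 10 pairs of regions, 58.7% to 81.1% of all genes were called in either direction. In all libraries the first step was not called for Slco1a4 (adjusted p 0.183), Tek (0.337) or Kdr. The step between the fourth and the fifth region was called for Flt1, Kdr, Pecam1 and Abcb1a, in each case with the neocortex last. The steps between the second and the fourth region were called for none of the members in the edgeR test of all libraries. Without the library of animal 4486, 3 of them were called: Kdr between amygdala and hypothalamus (adjusted p 0.0107), and Cdh5 (0.0279) and Tek (0.0406) between hippocampus and hypothalamus. CPM and the fitted values use different scalings: with total counts alone the median log2 fold change of all genes stood at 0.15 between hypothalamus and either amygdala or hippocampus and at -0.16 between either of these and the cerebellum, whereas it stood between -0.03 and 0.01 in the fit with TMM factors. For this reason Kdr was 14.5 CPM in the cerebellum and 14.2 in the hippocampus while its fitted log2 fold change between them was -0.13, with no call.

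Markers of other cells of the vessel wall also differed between the regions, and their part in the members' differences was not tested. The 11 pericyte markers, all detected, summed to 220 ± 24.6 CPM in the cerebellum, with libraries from 171 to 254, against regional means of 149 to 188 elsewhere. Of the 8 pericyte markers tested, 6 were called higher and 1 lower in the cerebellum, from Vtn at 0.81 to Cspg4, a proteoglycan of pericytes and of oligodendrocyte precursors, at -1.28 on the log2 scale. In the neocortex the pericyte sum was 160 ± 19.9 CPM, above the 149 of the hypothalamus and the 152 of the hippocampus, and 4 of the 8 were called lower and 2 higher, from Rgs5, a pericyte signalling regulator, at -0.83 to Anpep at 0.29. There, 4 of 4 smooth muscle markers were called lower, down to Myh11 at -1.08. All 5 tested fibroblast markers (Col3a1 at 1.29) and all 3 tested red blood cell markers (Hbb-bs at 0.80) were called higher in the cerebellum. These counts stand beside 42.3% of all genes called higher and 40.2% lower in the cerebellum. In the neocortex the shares were 37.7% higher and 36.2% lower. Choroid plexus, whose vessels are fenestrated and lack this barrier, was present in some dissections: its markers summed from 44.8 to 3630 CPM over the cerebellum libraries, from 62.2 to 3963 over the hippocampus libraries and to at most 97.6 elsewhere. Plvap, the protein of the fenestral diaphragm, had 13.9 ± 1.63 CPM in the cerebellum and 6.47 ± 2.11 elsewhere, a log2 fold change of 1.05. The libraries of each region were pooled for sequencing by region, so a region and its pool cannot be told apart.

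The wider pathways were described in the same contrasts from lists written from general knowledge, with earlier results of these data known. In the cerebellum, 9 of 15 tested genes of VEGF, angiopoietin and Notch signalling were called higher and 4 lower, with a median log2 fold change of 0.23. Vegfc, a ligand of the lymphatic VEGF receptor, was highest at 0.84 (5.59 ± 1.06 CPM against 2.89 ± 1.02) and Nrp2, a co-receptor that neurons also carry, lowest at -2.18. Of 15 junction genes, 13 were called higher and 2 lower, with Marveld2, a protein of the contacts where 3 cells meet, at 3.58 and Jam3 at -0.50. Of 17 tested transporters and receptors of the barrier, 9 were called higher and 5 lower, with the amino acid carrier Slc7a5 highest at 0.71. The barrier-inducing Wnt ligands stood at the 2 ends of their list, Wnt7a at 2.32 (90.4 ± 7.16 against 17.0 ± 3.31 CPM) and Wnt7b at -2.38 (8.91 ± 1.48 against 44.1 ± 11.4 CPM). These ligands are made by neural cells rather than by the endothelium. Of 21 other pan-endothelial genes, 12 were called higher and 4 lower, from Mcam at 1.33 to Palmd at -1.31, and their median was 0.24 against 0.46 for the members. The corresponding shares over all genes were 42.3% higher and 40.2% lower.

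In the neocortex 36.2% of all genes were called lower and 37.7% higher. Of the VEGF, angiopoietin and Notch genes, 7 of 15 were called lower and 2 higher, with Nrp2 at -1.43 and Apln, the ligand of the apelin receptor, at 0.89. Of the junction genes 9 were called lower and 4 higher, of the barrier transporters 4 and 4 of 17, and of the Wnt list 10 and 2 of 15, with Fzd4, the receptor for norrin, lowest at -0.90 (4.69 ± 1.62 against 9.05 ± 2.43 CPM). Of the other pan-endothelial genes 10 were called lower and 3 higher. Cd34, a sialomucin of endothelium and of blood stem cells, was the most different of them, at 64.6 ± 10.8 CPM in the neocortex (SD, n = 16) and 20.3 ± 9.31 elsewhere, a log2 fold change of 1.81, and all 16 neocortex libraries stood above the mean of the others.

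The second comparison asked whether the state of the females, virgin or primiparous, moved the members. In the hypothalamus, where 22.6% of all genes were called in either direction, 1 of 10 members was called: Cldn5 was higher in primiparous females. In the cerebellum 0 were called, beside 0.707% of all genes, and in amygdala, hippocampus and neocortex 0, beside 0% of all genes. These zeros were the same by edgeR, limma-voom and DESeq2, and the members at an unadjusted edgeR p under 0.05 numbered 2 in the cerebellum (Cldn5 and Kdr, beside 19.5% of all genes) and 0 in amygdala, hippocampus and neocortex (beside 11.9%, 7.38% and 9.8%). The median log2 fold change of the 10 members was 0.07 in the hypothalamus, 0.02 in the amygdala, 0.04 in the hippocampus, 0.00 in the neocortex and -0.03 in the cerebellum. Without the amygdala library of animal 4486 the amygdala median was -0.14.

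Cldn5 in the hypothalamus ran from 19.95 over a median of 26.8 to 38.9 CPM in the 8 virgin females and from 23.2 over 36.6 to 46.1 CPM in the 8 primiparous females. The groups overlapped, and 7 of 8 primiparous libraries stood above the virgin mean. The means were 27.6 ± 6.85 and 37.2 ± 8.44 CPM (SD, n = 8 each), a log2 fold change of 0.41 (SE 0.147, 95% interval 0.12 to 0.70, edgeR adjusted p 0.0478). With the length and GC offset the log2 fold change was 0.21 and the call was lost (adjusted p 0.605). The call was also lost in DESeq2 (log2 fold change 0.41, adjusted p 0.0578), with no filter (0.41, 0.101) and with the animal number series as a covariate (0.52, 0.262). It was lost as well in 12 of 16 fits that left out 1 library. The call was kept in limma-voom (0.46, 0.0278), with median-of-ratios scaling (0.41, 0.0478) and with no scaling beyond total counts (0.44, 0.0369). The number series was close to aligned with the state: 7 of 8 primiparous but 2 of 8 virgin females had numbers of 3 digits, so state and series are partly confounded. The 4 libraries whose omission kept the call were those of primiparous animals 427 and 4493 and of virgin animals 4490 and 4491. Its log2 fold change over these 16 fits ran from 0.35 to 0.50.

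Slco1a4 had a difference of similar size in the other direction. Its hypothalamus libraries ran from 20.9 over 34.6 to 59.0 CPM in virgin and from 14.4 over 29.2 to 33.5 CPM in primiparous females, and none of the primiparous libraries (0 of 8) reached the virgin mean of 36.1 ± 12.05 CPM. The log2 fold change was -0.39 (SE 0.205, 95% interval -0.79 to 0.01) and was not called (adjusted p 0.175). The remaining members lay between them. The receptors gave 0.21 for Flt1, 0.06 for Kdr and -0.14 for Tek, the junction genes 0.20 for Pecam1 and 0.04 for Cdh5, the transporters 0.14 for Slc2a1 and -0.03 for Abcb1a, and Ly6c1 gave 0.07, with adjusted p-values from 0.184 to 0.891 in the edgeR test.

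**Figure D4:**
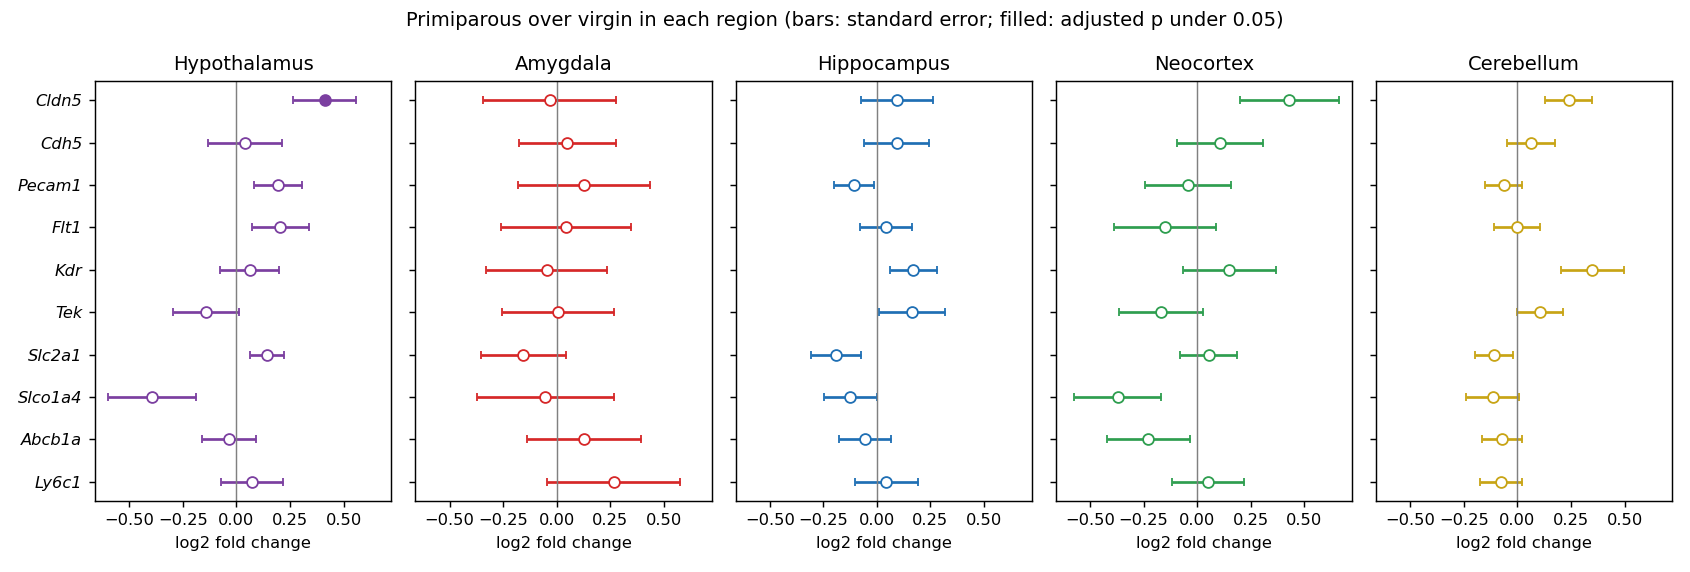
Log2 fold change of each member in primiparous over virgin females in each region, with standard errors as bars and filled points for an adjusted p under 0.05 (edgeR quasi-likelihood test within each region). Cldn5 in the hypothalamus, at 0.41, is the 1 filled point.

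Over the 10 members, the log2 fold change between states in the hypothalamus rose with the GC percentage of the longest transcript (Pearson r 0.91, Spearman rho 0.81, across genes of the same libraries), from Slco1a4 at 40.3% to Cldn5 at 60.5%. Over the 12632 genes with a length and GC value, the same Pearson r was 0.64. The neocortex gave 0.91 over the members and 0.62 over all genes, with Cldn5 at 0.43 and Slco1a4 at -0.37 on the log2 scale and neither called (adjusted p 0.503 and 0.505). In the amygdala, hippocampus and cerebellum, r was -0.17, 0.22 and 0.42 over the members and -0.32, -0.15 and -0.01 over all genes. With the length and GC offset, the log2 fold change in the hypothalamus was 0.21 for Cldn5 (SE 0.184) and -0.16 for Slco1a4. The members' r with GC content was then 0.67 in the hypothalamus, 0.37 in the amygdala, 0.42 in the hippocampus, 0.73 in the neocortex and 0.30 in the cerebellum, and 0 members were called in any region by edgeR (3.2% of all genes in the hypothalamus). Genes are not independent replicates, and the offset was fitted on the same libraries.

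**Figure D5:**
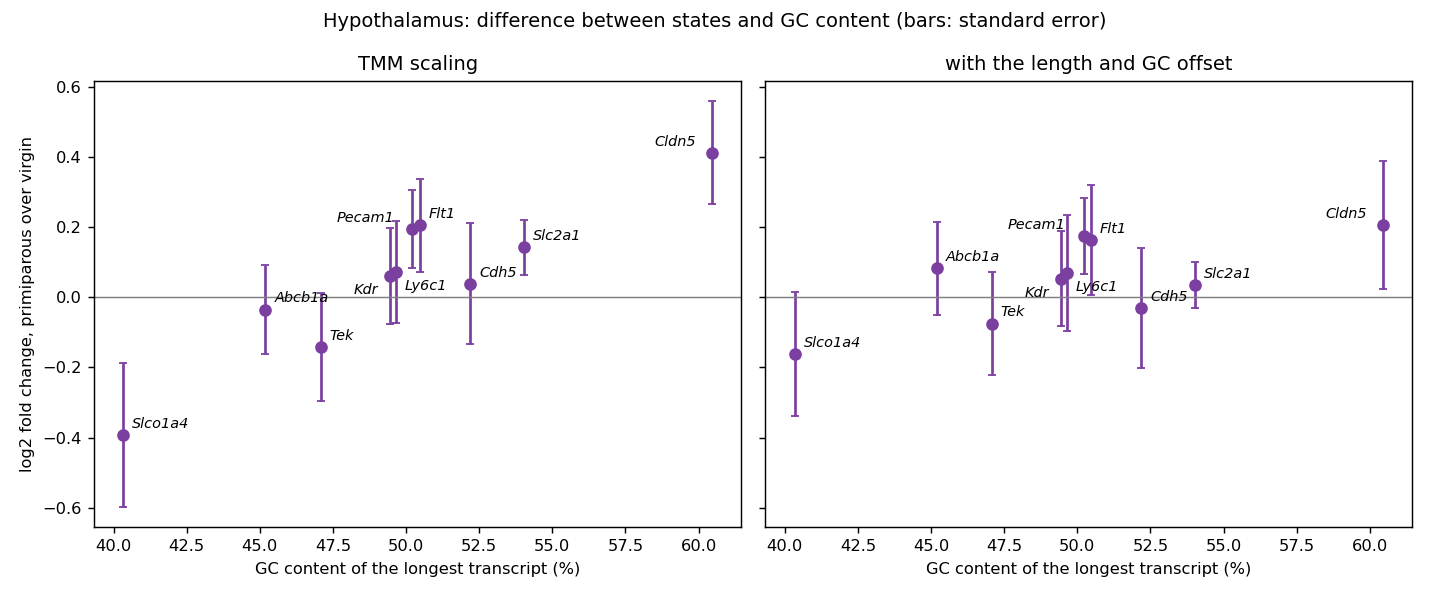
Log2 fold change of each member between states in the hypothalamus (vertical axis, with standard errors) against the GC content of its longest transcript in percent, at the left with TMM scaling and at the right with an added offset for length and GC content. The span from Slco1a4 to Cldn5 runs from -0.39 to 0.41 at the left and from -0.16 to 0.21 at the right.

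In the other regions the members differed little between the states relative to their spread. In the cerebellum Kdr had 16.0 ± 4.25 CPM in primiparous (n = 8) and 12.7 ± 2.39 in virgin females (n = 7), a log2 fold change of 0.35 (adjusted p 0.199), and 6 of 8 primiparous libraries stood above the virgin mean. Cldn5 had 54.6 ± 11.1 against 46.5 ± 6.82 CPM there, a log2 fold change of 0.24 (adjusted p 0.241). The 8 other members ranged from -0.11 to 0.10. In the hippocampus the largest differences were -0.19 for Slc2a1 (76.3 ± 13.2 against 87.6 ± 14.0 CPM) and 0.17 for Kdr, and the smallest adjusted p was 0.758. In the amygdala Ly6c1 was at 0.27 and Slc2a1 at -0.16, with standard errors of up to 0.318, and at 0.10 and -0.27 without the library of animal 4486. The neocortex gave Abcb1a at -0.23 and Tek at -0.17 beside the Cldn5 and Slco1a4 values above. Whether a member's difference between states departed between the hypothalamus and another region was tested as an interaction: 0 members were called in any of the 4 fits by edgeR, limma-voom or DESeq2, beside 18.2%, 17.2%, 0% and 15.5% of all genes called against amygdala, hippocampus, neocortex and cerebellum. At an unadjusted p under 0.05 there was 1 member, Slc2a1 against the hippocampus (0.33 on the log2 scale, adjusted p 0.114), beside 32.7%, 33.4%, 2.58% and 30.5% of all genes.

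The pathway genes around the members were also read between the states. In the hypothalamus, 1 of 15 genes of the VEGF, angiopoietin and Notch list rose and 1 fell: Notch1, the receptor of lateral signalling between cells, had 43.8 ± 4.57 CPM in primiparous and 35.3 ± 2.44 in virgin females (0.29 on the log2 scale, 8 of 8 above the virgin mean), and Angpt1, the ligand of Tek that pericytes and other cells secrete, had 12.2 ± 2.05 and 17.1 ± 2.16 CPM (-0.50, 0 of 8 above). Among 15 junction genes 1 rose, Jup at 0.22, and 1 fell, Cldn12 at -0.25. Of the 17 transporters and receptors 1 was called, the transferrin receptor Tfrc at -0.27, and of the Wnt list 3 of 15, from Adgra2 at 0.29 to Tspan12 at -0.24. Among 21 other pan-endothelial genes 3 rose and 0 fell, with Nos3, the endothelial nitric oxide synthase, highest at 0.48 (12.7 ± 2.08 against 9.04 ± 1.24 CPM). Of the mural markers, 2 of 8 pericyte genes rose, up to Cspg4 at 0.40, and 1 of 4 smooth muscle genes, Acta2 at 0.45. The arterial and venous genes gave 0 calls of 7 and the fenestrated gene tested, Plvap, 0 of 1. These counts stand beside 22.6% of all genes called in the same contrast. In the cerebellum, where 0.707% of all genes were called, 0 genes of the VEGF, junction, transporter, Wnt and other endothelial lists were called between the states by edgeR or limma-voom, and DESeq2 called 1, Mcam of the last list. At an unadjusted edgeR p under 0.05 the lists held 1 of 15, 4 of 15, 3 of 17, 1 of 15 and 2 of 21 genes, beside 19.5% of all genes. The fibroblast marker Col3a1, a collagen gene, was called higher in primiparous cerebellum, at 9.38 ± 1.65 CPM (n = 8) against 6.55 ± 0.83 (n = 7). Its log2 fold change was 0.54 (edgeR adjusted p 0.0363), with 8 of 8 libraries above the virgin mean. The astrocyte marker Aqp4 (0.30, adjusted p 0.0175) and the oligodendrocyte marker Mbp (0.42, adjusted p 0.0254) were also called higher there in the same test. Each had 8 of 8 primiparous libraries above the virgin mean. Col3a1, Aqp4 and Mbp were each the called gene with the largest log2 fold change of its list. These lists held 5, 6 and 5 tested genes, and the number called in each is not given here.

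Within a group of region and state, the members rose and fell together from library to library. After the mean of each group was removed from log2(CPM + 4), the 45 pairs of members had a median Pearson r of 0.76 over 77 libraries, with 45 of 45 above 0.5 (range 0.52 to 0.89). Without the amygdala library of animal 4486 the median was 0.68 and the pairs ran from 0.36 to 0.85. Libraries of 1 animal share that animal, and all libraries of a region share its dissection, so these are descriptions. By region the median was 0.90 in the amygdala (0.75 without animal 4486), 0.73 in the neocortex, 0.66 in hypothalamus and hippocampus and 0.54 in the cerebellum. Abcb1a followed the mean of the other members most closely (r 0.93), then Flt1 (0.90) and Tek (0.88), and Slc2a1 least (0.70), and without the amygdala library of animal 4486 these values ran from 0.59 to 0.90. Slc2a1 also made the lowest pairs in 3 regions, at -0.33 with Slco1a4 in the hypothalamus, 0.33 with Slco1a4 in the hippocampus and -0.17 with Pecam1 in the cerebellum. GLUT1 is known to be carried by astrocytes as well as by endothelium.

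The genes most like the members by this measure were Adgrf5 (r 0.90), Ptprb (0.90), Adgrl4 (0.89), Podxl (0.88), Cxcl12 (0.87), Ly6a (0.85), Eng (0.84), Esam (0.84), Igfbp7 (0.81) and Acvrl1 (0.81), out of 13006 other genes. Without that amygdala library their r ran from 0.73 to 0.89. Ptprb is the endothelial phosphatase that acts on Tek, Eng and Acvrl1 are a co-receptor and a receptor of the BMP family, Podxl is a sialomucin of the luminal surface and Esam an adhesion molecule of the junctions. Among the lists, the median r with the members was 0.69 for other pan-endothelial genes, 0.67 for smooth muscle and 0.65 for pericyte markers. It was 0.46 for barrier transporters, 0.41 each for the VEGF and Wnt lists and 0.21 for junction genes. Arterial and venous endothelial genes had 0.03 and Plvap 0.02. Markers of fibroblasts had 0.34, microglia 0.26, oligodendrocytes 0.16, red blood cells 0.12, astrocytes 0.07 and neurons -0.13. The median over all genes tested was 0.05. In the hypothalamus libraries alone, 3 of these 10 genes were again among the 10 most alike.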

How the data were processed

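RNA was poly(A)-selected and sequenced as single-end reads, aligned to mm10 with HISAT2 and counted per gene with featureCounts, reads mapping to 1 place only (per the labels' processing notes and the study's methods). Tool versions and the strand setting are not given in the sources used here. The authors deposited raw read counts for 27179 genes in 77 libraries, and a table of log2 values for 13016 genes. The deposited log2 values equalled log2(count / size factor + 4) to within 5e-05 and were used for gene symbols (11939 genes) and the filter check, not for tests. Of the 80 samples, 3 virgin libraries (hippocampus, cerebellum and amygdala) were labelled as left out of the study and are not analysed here.

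From the counts, CPM used total counts, and tests used edgeR 4.0.16 (TMM, robust quasi-likelihood) with Benjamini-Hochberg adjustment over the 13016 genes of 5 CPM or more in 8 or more libraries, at a threshold of 0.05. Primiparous and virgin libraries were compared within each region, regions in a model of 10 groups, and interactions in fits of 2 regions. Alternatives were DESeq2 1.42.0, limma-voom (limma 3.58.1, the study's test), median-of-ratios scaling, no filter, an offset for exon length and GC content (splines with 4 degrees of freedom, 12632 genes, 97.0%), the animal number series (3 or 4 digits) as a covariate, omission of libraries, and an animal block. On simulated counts, 200 genes were changed by a log2 fold of 1. Of these, edgeR found 97.5% between states in the hypothalamus, 98% for cerebellum against other regions and 89.5% for the interaction of hypothalamus and amygdala. It also called 11, 9 and 14 unchanged genes in these fits. The members' log2 fold changes were smaller, from -0.39 to 0.41, 0.16 to 0.65 and -0.34 to 0.45 in the same contrasts. Recovery at these sizes was not tested.

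The animals of a region pair are the same by their labels, so numbers pair libraries across regions. The median correlation of same-animal deviations was between -0.01 and 0.10 over region pairs. The states hold different animals and are not paired. The members and lists were chosen with earlier results of these data known. Named genes are all members, the called gene with the largest and the smallest log2 fold change of each other list, the 10 non-members most like the members and the listed paralogs. Of the genes of the other lists, those in the contrasts and lists the text describes are given, and not every gene the rule names is reported here. Hbb-bt, a red blood cell marker of the lists, matched no row.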

Additional observations from a re-analysis of the deposited data

Results flagged for a closer look

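In 2 of 110 groups of 4 to 10 libraries, 1 library stood apart from the others by Dixon's 95% criterion, where chance alone gives about 1 in 20, or 5.5. Cdh5 was at 13.5 CPM in the hippocampus of virgin animal 4489, against 8.23 to 10.3 CPM in the other virgin hippocampus libraries. Slc2a1 was at 43.4 CPM in the amygdala of virgin animal 4486, against 89.9 to 125 CPM in the other virgin amygdala libraries. The other 9 members were also lowest in that amygdala library but did not pass the criterion.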

How the results depend on the processing

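Of the values for single members, 774 kept their side of the threshold under an alternative, 22 gained a call, 20 lost one and 0 changed sign with a call. The call of Cldn5 between states in the hypothalamus (1 member) became 0 with DESeq2, with no filter, with the length and GC offset and with the animal number series as a covariate, and was 0 to 1 when single libraries were left out. Among regions, the length and GC offset gave 7 members in the hypothalamus against the other regions (3 in the main test), beside 80.1% of all genes. It gave 1 in the amygdala (0), 1 in the hippocampus (2) and 4 between hypothalamus and amygdala (2). The hippocampus count was also 1 with no filter and 1 with no scaling beyond total counts. Between hypothalamus and hippocampus (2), limma-voom gave 5, no scaling 1, and the replicate block with the animal as the pairing 5. For the other region counts with the offset, no filter, limma-voom or no scaling, the shares of all genes are not given here. Those counts therefore cannot be set against all genes. The block changed no other count by more than 1.5 times. Without the amygdala library of virgin animal 4486, the counts were 6 in the hypothalamus, 3 in the amygdala, 5 between hypothalamus and amygdala, 5 between hypothalamus and hippocampus, and 4 between amygdala and cerebellum (8). Likeness shared 3 of 10 genes in the hypothalamus libraries alone. The cause of these changes was not tested. No scaling beyond total counts and omission of animals 4486 (between regions, likeness) and 4493 (between regions) were chosen after seeing the data. The 95% intervals cover the spread between animals, and 7 or 8 libraries a state left standard errors of up to 0.318 on the log2 scale.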

Other observations

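The 3 tested red blood cell markers had a positive log2 fold change (primiparous over virgin) in all 5 regions, with medians of 0.68 in the hypothalamus, 0.73 in the amygdala, 0.64 in the hippocampus, 0.47 in the neocortex and 0.91 in the cerebellum. In the edgeR test 2 of 3 were called in the hypothalamus, beside 22.6% of all genes, and 0 in the other regions. At an unadjusted edgeR p under 0.05 there were 2 in the amygdala, 2 in the hippocampus, 1 in the neocortex and 3 in the cerebellum. The shares of all genes at that threshold were 11.9%, 7.38%, 9.8% and 19.5%. In the cerebellum DESeq2 called all 3 and limma-voom 0, and both called 0 in amygdala, hippocampus and neocortex. The share of all genes that DESeq2 called in the cerebellum is not given here. Alas2, the enzyme of haem synthesis in red cell precursors, had 7.94 ± 3.53 CPM in primiparous and 4.64 ± 1.32 CPM in virgin hypothalamus (SD, n = 8 each), a log2 fold change of 0.72 with an adjusted p of 0.0215, and 7 of 8 primiparous libraries stood above the virgin mean. The regions come from the same animals and are not independent. Within groups, these markers followed the endothelial members little (median r 0.12).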
